A study of Mus musculus with 6 samples.

Results

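The Hox genes of the 4 mouse clusters are described here across 6 RNA-seq libraries of intestine. Members were all genes of the deposited table whose symbol is Hoxa, Hoxb, Hoxc or Hoxd followed by a number, with antisense and opposite-strand transcripts left out. This gave 39 of 32219 genes: 11 in Hoxa (chromosome 6), 10 in Hoxb (chromosome 11), 9 in Hoxc (chromosome 15) and 9 in Hoxd (chromosome 2). The rule used names and no measured value.

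The series holds 3 libraries labelled WT (wild type) and 3 labelled KO (knockout), all of mouse intestine. The title of the series names GPR41 (gene Ffar3) and DHX9, but the labels do not say which gene was knocked out, in which cells, or by which allele. Strain, age and sex are not stated there, nor whether each library is a separate animal, so p-values reflect variation between libraries that may be technical. The design text places the tissue in the duodenum, and the cells are labelled as a mixture of epithelium, immune cells and enteric neurons. The deposited values were taken as log2(abundance + 1). Base 2 is an assumption, and the abundance unit and whether it is per length are not given, so levels of different Hox genes are not ranked against each other.

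Hox genes encode homeodomain transcription factors that lie in clusters. Their order along the chromosome follows the order in which they are active along the body axis, with low paralogue numbers toward the head end and high numbers toward the tail end. In the gut they are best known from the mesenchyme, the muscle and connective tissue layers around the epithelium, where they carry positional identity from stomach to rectum.

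KO 1 stood apart from the other 5 libraries and is kept separate throughout. It listed 9729 genes above 0, against 22061 to 22768 in the others, and held values on chromosomes 1 and 10 to 18 and at the start of 19. It therefore covers Hoxb and Hoxc, while its zeros for Hoxa and Hoxd are missing values. For the 13833 genes it covers, each linear value was scaled down by a factor of 2.12 and is then called rescaled. The factor is the median, over 2160 genes whose level was at least 4, of the ratio of KO 1 to the 5 others' mean. Of the title's genes, Dhx9 stood at 5.94, 6.01 and 5.97 in WT 1 to WT 3, at 6.17 in KO 2, at 6.08 in KO 3 and at 7.10 in KO 1 as deposited, before rescaling. Ffar3 stood at 0.60, 0.18 and 0.46 in WT 1 to WT 3, 0.35 in KO 2 and 0.59 in KO 3, and KO 1 has no value for it. Neither gene was lower in both KO 2 and KO 3 than in WT, so neither level separates the labelled groups in the direction of a loss. The values do not show depth, so no counting interval is given.

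Promoter sequence is shown for 3 members, because Hoxb and Hoxc members differed in level between KO 1 and the other libraries. Hoxb8 had the lowest level in KO 1, relative to the other libraries, of the 3 Hoxb and Hoxc genes that passed the low-value filter and have a window, the others being Hoxb4 and Hoxc4. Each is the 250 bases before the RefSeq start on GRCm38.p6, 5′ to 3′ on the + strand. Capitals mark TTTAT or its reverse complement ATAAA, the core of the motif of CDX factors, which are homeodomain regulators of Hox genes and of intestinal identity. The windows are Hoxb8 at chr11:96281655-96281904, Hoxb4 at chr11:96318017-96318266 and Hoxc4 at chr15:103034145-103034394.
Hoxb8: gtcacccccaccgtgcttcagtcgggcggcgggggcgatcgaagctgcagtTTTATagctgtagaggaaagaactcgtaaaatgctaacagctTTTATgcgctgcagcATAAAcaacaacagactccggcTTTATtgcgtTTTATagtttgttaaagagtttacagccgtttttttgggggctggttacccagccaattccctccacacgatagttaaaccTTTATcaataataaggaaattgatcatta
Hoxb4: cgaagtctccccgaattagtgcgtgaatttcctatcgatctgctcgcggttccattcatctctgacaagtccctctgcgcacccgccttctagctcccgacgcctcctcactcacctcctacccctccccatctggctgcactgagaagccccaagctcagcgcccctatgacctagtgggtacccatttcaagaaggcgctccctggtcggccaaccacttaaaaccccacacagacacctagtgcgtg
Hoxc4: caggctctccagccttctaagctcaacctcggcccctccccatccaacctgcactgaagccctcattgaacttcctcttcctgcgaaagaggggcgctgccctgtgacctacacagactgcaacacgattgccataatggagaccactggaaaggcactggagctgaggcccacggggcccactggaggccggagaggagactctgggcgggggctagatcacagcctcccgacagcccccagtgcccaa
The Hoxb8 window held 6 matches, and those of Hoxb4 and Hoxc4 held 0. Counting both strands, 37.3% of 32851 windows of 27025 genes held at least 1 match, and 0.393% held 6 or more. Of the Hox genes, 22 of 39 had a RefSeq window, 24 windows in all, and 9 of the 24 held a match. These are matches to 5 letters, not binding sites. The Hoxc4 window lies inside the GENCODE interval of the gene (chr15:103018934-103036852). Hoxb9 and Hoxc9, which were lower than Hoxb8 in KO 1 relative to the other libraries, have no window. A link between matches and the level in KO 1 was not tested.

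In the 5 libraries other than KO 1, detection was counted by paralogue group. All 18 members of paralogue groups 3 to 8 were above 0.5 in each of the 5 libraries, with values from 0.51 to 4.54. Of the 9 members of groups 11 to 13, which pattern the hindgut end and the limbs, 6 were listed at 0 in all 5 libraries and the highest value was 0.10. Over all 39 members, 26 were above 0 in every one of the 5 libraries, 6 in some of them, and 7 in none. At stricter levels, 22 were above 0.5 and 18 above 1 in all 5. A filter of above 0 in at least 3 of the 5 libraries kept 29 members: 9 Hoxa, 9 Hoxb, 6 Hoxc and 5 Hoxd. The 10 members not kept were Hoxa11, Hoxa13, Hoxb1, Hoxc11, Hoxc12, Hoxc13, Hoxd1, Hoxd11, Hoxd12 and Hoxd13.

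**Figure D1:**
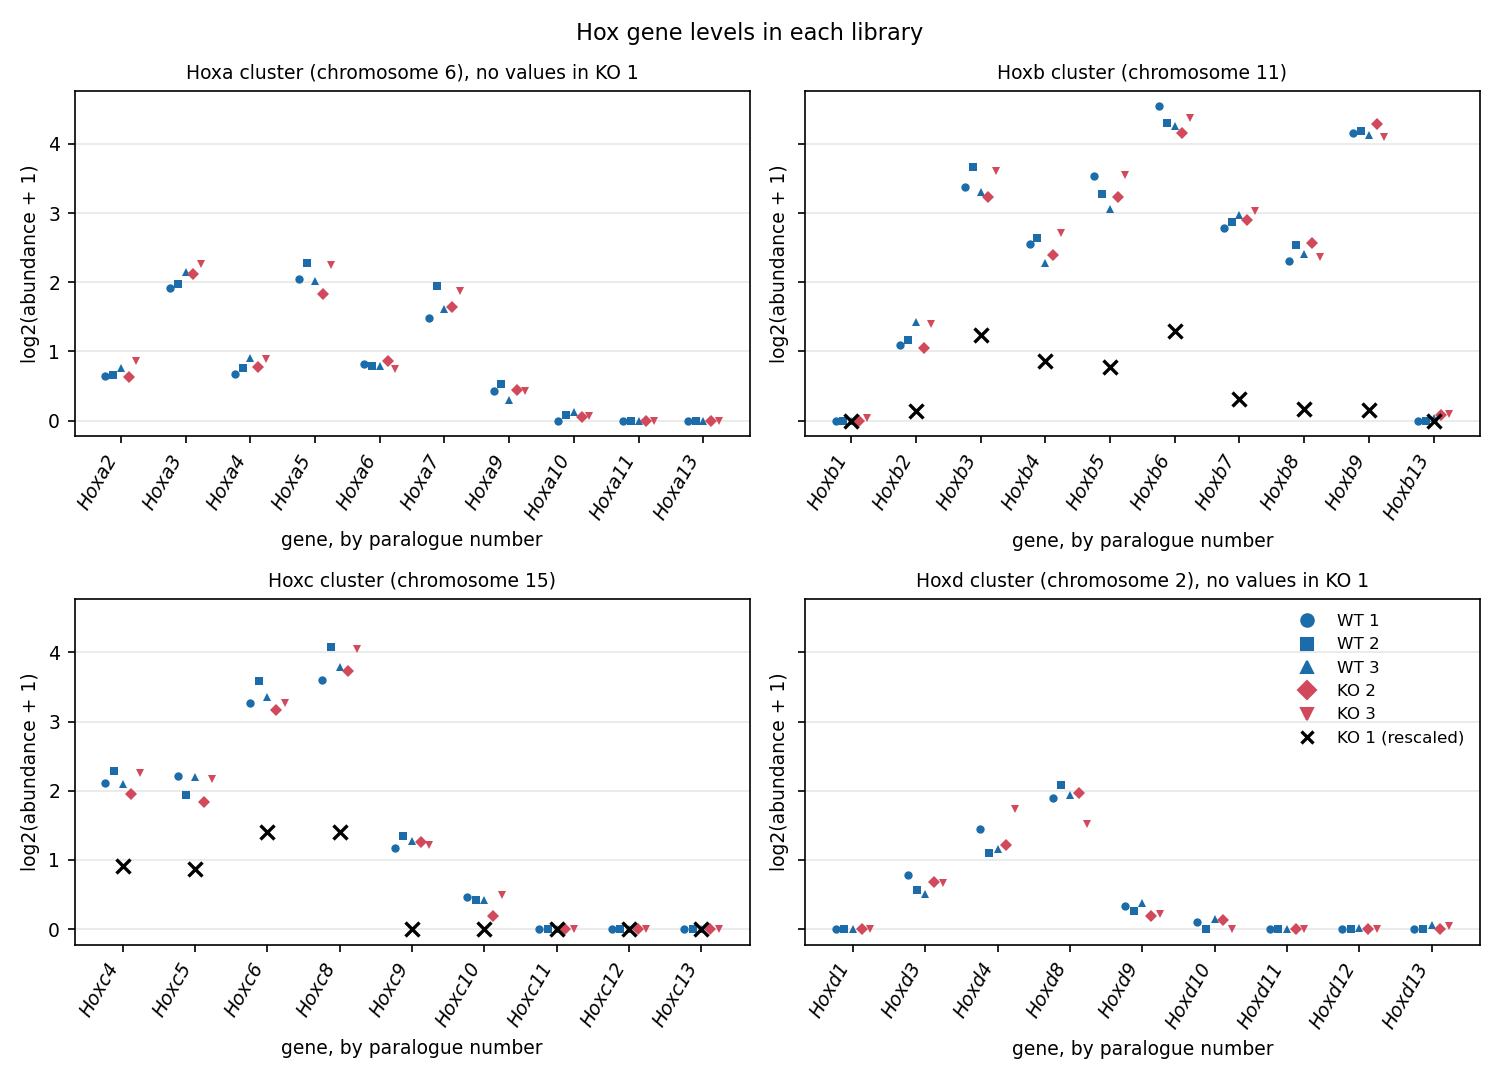
Level of Hox genes as log2(abundance + 1) (vertical axis) in each library, by cluster and paralogue number (horizontal axis). Each symbol is 1 library, crosses are KO 1 after rescaling, and the 5 other libraries lie close together while KO 1 lies below them for 14 of the 15 Hoxb and Hoxc genes kept.

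The anterior members, paralogue groups 1 and 2, specify hindbrain segments in the embryo. Hoxb1 was above 0 in KO 3 alone at 0.03, and Hoxd1 was listed at 0 in all 5. Hoxa2 stood at 0.64, 0.67 and 0.77 in WT, with 0.63 for KO 2 and 0.87 for KO 3. Hoxb2 stood at 1.10, 1.17 and 1.43 in WT, with 1.05 for KO 2 and 1.40 for KO 3. For each of these 2 genes KO 2 was the lowest library, and the WT and KO values overlapped.

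Groups 3 to 5 include Hoxa3, which acts in the pharyngeal organs, and Hoxa5, a mesenchymal regulator of lung and gut development. Hoxa3 stood at 1.91, 1.98 and 2.15 in WT, with 2.12 for KO 2 and 2.27 for KO 3. Hoxa5 stood at 2.05, 2.28 and 2.02 in WT, with 1.84 for KO 2 and 2.25 for KO 3. KO 3 was the highest library for Hoxa3, KO 2 was the lowest for Hoxa5, and the groups overlapped for both. Hoxb3 ran from 3.24 to 3.67 and Hoxb4, also a regulator of blood stem cells, from 2.28 to 2.72. Hoxb5, which is active in neural crest cells that form the enteric nervous system, stood at 3.54, 3.28 and 3.05 in WT, with 3.24 for KO 2 and 3.55 for KO 3. WT 3 was lowest and KO 3 highest for Hoxb5, so neither group stood apart. Hoxc4 ran from 1.95 to 2.28, Hoxc5 from 1.84 to 2.22, Hoxd3 from 0.51 to 0.78, Hoxd4 from 1.10 to 1.74 and Hoxa4 from 0.67 to 0.91.

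Groups 6 to 8 are trunk-level genes. Hoxb6 stood at 4.54, 4.30 and 4.25 in WT, with 4.16 for KO 2 and 4.38 for KO 3. Hoxc8 stood at 3.60, 4.08 and 3.78 in WT, with 3.73 for KO 2 and 4.05 for KO 3. Hoxc6 stood at 3.27, 3.59 and 3.36 in WT, with 3.17 for KO 2 and 3.26 for KO 3. KO 2 was lowest for Hoxb6 and Hoxc6, and Hoxc6 was the trunk-level gene whose KO values both lay under the WT range, with KO 3 next to the lowest WT library. Hoxb7 ran from 2.79 to 3.04, Hoxb8 from 2.31 to 2.57, Hoxa6 from 0.75 to 0.86, Hoxa7 from 1.49 to 1.95 and Hoxd8 from 1.52 to 2.08.

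Group 9 marks the step toward the posterior genes. Hoxb9 stood at 4.16, 4.18 and 4.13 in WT, with 4.29 for KO 2 and 4.10 for KO 3, and its SD over the 5 libraries was 0.07. Hoxc9 stood at 1.18, 1.35 and 1.27 in WT, with 1.25 for KO 2 and 1.21 for KO 3. Hoxa9 ran from 0.30 to 0.53 and Hoxd9 from 0.19 to 0.38. Both Hoxb9 and Hoxc9 overlapped between WT and KO. In group 10, which patterns the lumbosacral level, the highest value was 0.50, for Hoxc10 in KO 3. Hoxa10 reached 0.13 and Hoxd10 0.15. Hoxb13, a gene of the distal colon and prostate, was the one member of groups 11 to 13 that was kept, at 0, 0 and 0.04 in WT, with 0.08 for KO 2 and 0.10 for KO 3.

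Exons of several members overlap those of other genes in GENCODE vM21, and the strand setting of the counting is not given, so their reads cannot be assigned with certainty. On the opposite strand this holds for members including Hoxa3, Hoxa4, Hoxa7, Hoxa11, Hoxb2, Hoxb3, Hoxb5, Hoxd3 and Hoxd4. On the same strand it holds for Hoxa2, Hoxa3, Hoxa9, Hoxc5, Hoxc10, Hoxd3, Hoxd4, Hoxd10 and Hoxd11. Hoxc5 (15, 102967443 to 103017429) shares exon sequence with Hoxc10, and Hoxd3 with Hoxd4.

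The first comparison was KO 2 and KO 3 against the 3 WT libraries. No Hox gene passed: limma called 0 of 29 members at a Benjamini-Hochberg adjusted p under 0.05, against 1 of 22047 genes (0.00454%) in the whole table. That gene, the predicted gene Gm49380, is named after its value was seen. At an unadjusted p under 0.05 the count was also 0 of 29, against 2.23% of all genes. The level was higher in KO for 16 members and lower for 13, with a median log2 fold of 0.0033, and over all genes 13466 were higher and 8581 lower, with a median of 0.03. The split depended on scaling: with each library centred on its median, 9 members were higher and 20 lower, with a median of -0.054, and 8382 of all genes were higher and 13665 lower. Under quantile normalization 13 members were higher and 16 lower, beside 11026 and 11021 of all genes. The adjusted p of every member kept was 0.999978. The groups did not overlap for 3 of 29 members, against 13.6% of all genes. Hoxb13 lay above the WT range, as did 9.82% of all genes, and Hoxc6 and Hoxd9 lay below it, as did 3.77%.

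The members with the smallest p-values had small folds. The log2 fold was 0.08 ± 0.04 (SE) for Hoxb13, -0.12 ± 0.06 for Hoxd9 and -0.19 ± 0.13 for Hoxc6, all at values per library given above or, for Hoxd9, at 0.34, 0.26 and 0.38 in WT, with 0.19 for KO 2 and 0.23 for KO 3. Hoxd4 had the highest fold of the members kept, 0.25 ± 0.21, from 1.44, 1.10 and 1.16 in WT, with 1.22 for KO 2 and 1.74 for KO 3. Hoxd8, which shares its chromosomal cluster, had the lowest, -0.22 ± 0.19, from 1.90, 2.08 and 1.94 in WT, with 1.97 for KO 2 and 1.52 for KO 3. Both rest on KO 3: without it the fold was -0.014 for Hoxd4 and 0.0028 for Hoxd8. The remaining members of the 8 with the smallest p had folds of 0.18 ± 0.16 (Hoxa3), -0.09 ± 0.10 (Hoxc10) and -0.10 ± 0.13 (Hoxb6). Without KO 2, the folds of Hoxc10 and Hoxb6 were 0.061 and 0.015. Over the 18 members with a mean of at least 1, the 95% intervals of the fold lay within -0.69 and 0.76 on the log2 scale. Folds on this scale understate the change of genes near 0.

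**Figure D2:**
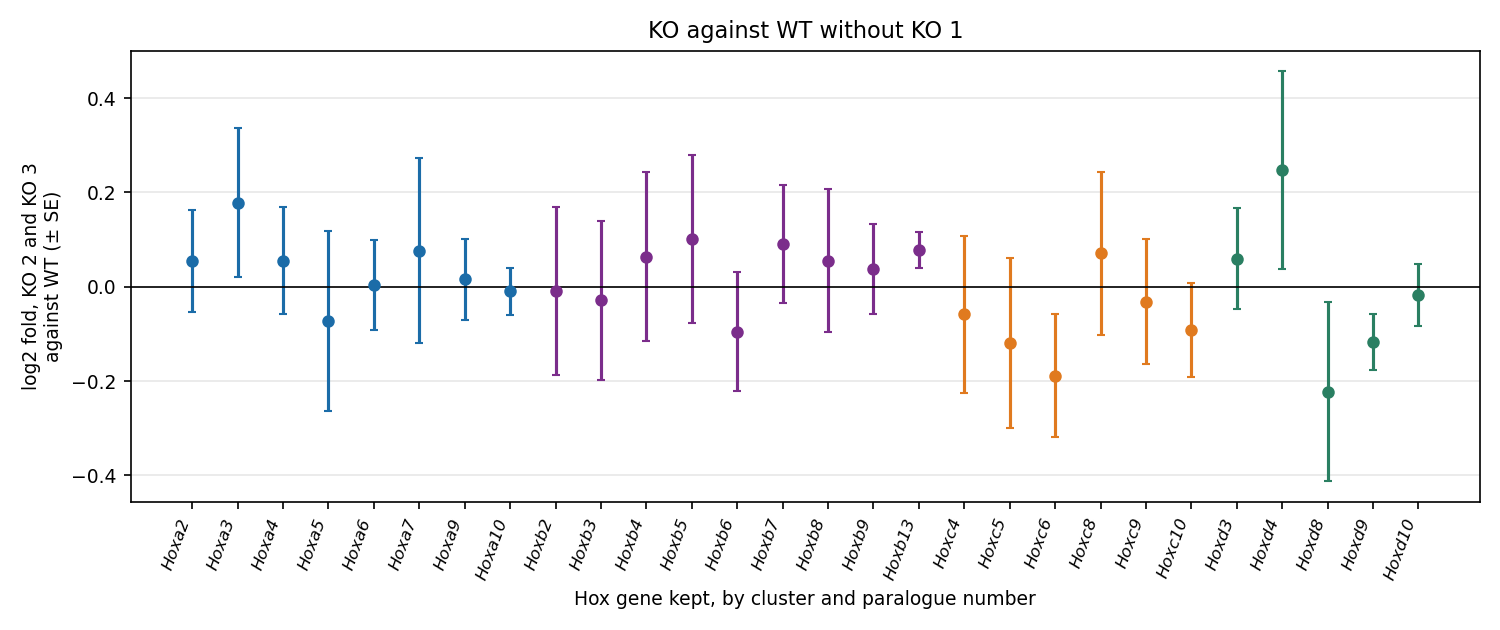
Log2 fold of KO 2 and KO 3 against the 3 WT libraries (vertical axis) for Hox genes kept, by cluster and paralogue number (horizontal axis). Points are limma estimates with bars of 1 SE, and folds run from -0.22 for Hoxd8 to 0.25 for Hoxd4.

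Between single libraries, the 18 members with a mean of at least 1 differed in one direction for most genes of a library, by small amounts. Their median difference from the mean of the 5 libraries was -0.05, 0.10 and -0.04 in WT 1 to WT 3, -0.12 in KO 2 and 0.14 in KO 3. KO 3 was above the mean for 13 of the 18 and KO 2 for 5. For the pooled 18 the 2 KO libraries thus lay at the lowest and the highest end. By cluster this held for the 8 Hoxb genes alone (-0.11 in KO 2, 0.14 in KO 3). In Hoxc, KO 2 was lowest (-0.16) but WT 2 highest (0.14). In Hoxa, WT 1 was lowest (-0.17) and WT 2 highest (0.19), and in Hoxd, WT 3 was lowest (-0.06) and WT 1 highest (0.06). Enteric neuron markers had the same order of libraries as the pooled 18. Markers of smooth muscle had a like order, but with WT 1 in place of KO 2 at the lowest end. Their median difference was -0.24, 0.19 and 0.03 in WT, with -0.22 for KO 2 and 0.22 for KO 3, with 10 of 10 markers above the mean in KO 3 and 0 of 10 in KO 2. Their summed linear level was 1567 to 2037 in WT, with 1572 for KO 2 and 2138 for KO 3. Enteric neuron markers stood at -0.14, 0.07 and -0.03 in WT, with -0.19 for KO 2 and 0.26 for KO 3, and their summed level was 29.8 to 36.8 in WT, with 27.9 for KO 2 and 43.9 for KO 3. Other cell types also split KO 2 from KO 3. Epithelial markers were above the mean for 0 of 10 in KO 2 and 10 of 10 in KO 3 (-0.08 and 0.10, summed level 2008 and 2261), and mesothelial markers for 1 and 10 of 10 (-0.18 and 0.21). Immune markers went the other way and differed most, above the mean for 10 of 10 in KO 2 and 0 of 10 in KO 3 (0.84 and -0.46), with a summed level of 172 and 59.3. Fibroblast markers were highest in WT 2, at 0.38, and at -0.10 and -0.11 in KO 2 and KO 3. None of the markers of these 6 types was listed at 0 in all 5 libraries. The part of these cell types in the Hox differences was not tested, and in bulk tissue fewer cells of a type and less RNA per cell cannot be told apart.

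**Figure D3:**
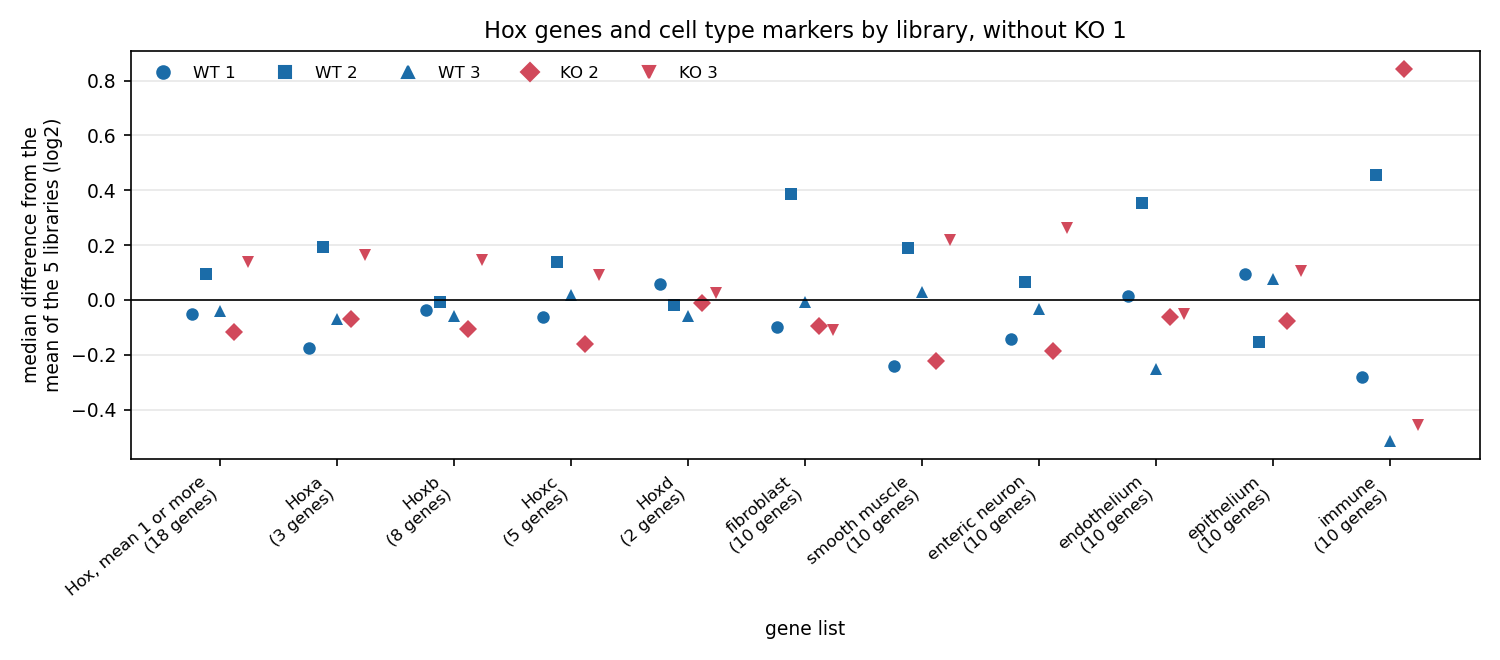
Median difference of each gene list from the mean of the 5 libraries without KO 1, in log2 units (vertical axis), for Hox genes and cell type markers (horizontal axis). Each symbol is 1 library. KO 3 is the highest and KO 2 among the lowest for the 18 Hox genes and for smooth muscle, enteric neuron and epithelial markers. Immune markers are highest in KO 2, and fibroblast and endothelial markers in WT 2.

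The second comparison set KO 1 against the other 5 libraries along Hoxb and Hoxc. It is 1 library, so there is no test. After rescaling, 14 of the 15 members kept lay below all 5 other libraries, against 39.7% of 9946 covered genes kept. The exception was Hoxb13, which was listed at 0 in KO 1 and in WT 1 and WT 2. Without any rescaling the count was also 14 of 15, against 12.6% of covered genes. Of the 13 members with a mean of at least 1, 7 were under 10% of the mean of the other libraries, against 2.36% of 6516 covered genes at that level, and 4 were under 5%, against 1.32%.

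The Hoxb genes were lower in KO 1 by amounts that differed along the cluster. On GRCm38, Hoxb9 (chr11:96271457-96276595, + strand) stood at 0.32 as deposited and 0.16 rescaled in KO 1, against 4.10 to 4.29 in the others, which is 0.682% of their mean on the linear scale. Hoxb8 (chr11:96281905-96285315), whose upstream window is printed above, stood at 0.33 as deposited and 0.17 rescaled, or 2.75%. Hoxb4 (chr11:96318267-96321638) stood at 1.46 as deposited and 0.86 rescaled, or 17.3%. From Hoxb4 to Hoxb9 the percentage went down at every step: 17.3% for Hoxb4, 7.83% for Hoxb5, 7.62% for Hoxb6, 3.75% for Hoxb7, 2.75% for Hoxb8 and 0.682% for Hoxb9. The more anterior genes broke this order, with 13.6% for Hoxb3 and 7.48% for Hoxb2. Over the 8 genes from Hoxb2 to Hoxb9, Spearman's rho between percentage and paralogue number was -0.74. Neighbouring genes share a cluster and the same libraries, so this is a description.

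The Hoxc genes showed the same direction. Hoxc4 (chr15:103018934-103036852) stood at 1.52 as deposited and 0.91 rescaled in KO 1, against 1.95 to 2.28 in the others, or 25.8%. Hoxc8 (chr15:102990607-102994111) stood at 2.16 as deposited and 1.40 rescaled, against 3.60 to 4.08, or 12.1%. Hoxc5 stood at 25.9% and Hoxc6 at 18.1%, and Hoxc9 and Hoxc10 were listed at 0 in KO 1. Spearman's rho over Hoxc4, Hoxc5, Hoxc6, Hoxc8 and Hoxc9, the last taken as 0%, was -0.90. Under base e the percentages were lower, at 16.4% for Hoxc4, 9.85% for Hoxb4 and 0.202% for Hoxb9, and as deposited they were higher, at 54.8%, 36.6% and 1.45%.

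Ratios of 2 members within a library do not depend on the rescaling, though they do rest on the assumed base and added constant. The pairs were chosen after the values were seen. The linear ratio of Hoxb9 to Hoxb4 was 3.47, 3.28 and 4.27 in WT 1 to WT 3, 4.36 in KO 2, 2.90 in KO 3 and 0.142 in KO 1. The ratio of Hoxb7 to Hoxb4 was 1.21 to 1.78 in the 5 libraries and 0.300 in KO 1. The ratio of Hoxc8 to Hoxc4 was 3.36 to 4.27 in the 5 and 1.85 in KO 1. The ratio of Hoxb4 to Hoxb2 went the other way, 2.28 to 4.28 in the 5 and 8.08 in KO 1. Over every pair of Hoxb genes with a mean of at least 1, the ratio of the higher to the lower paralogue number in KO 1 was below the other 5 libraries for 22 of 28 pairs, above for 3 and within for 3. Over such Hoxc pairs it was below for 9 of 10 and within for 1. The pairs share genes and restate the percentages above.

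**Figure D4:**
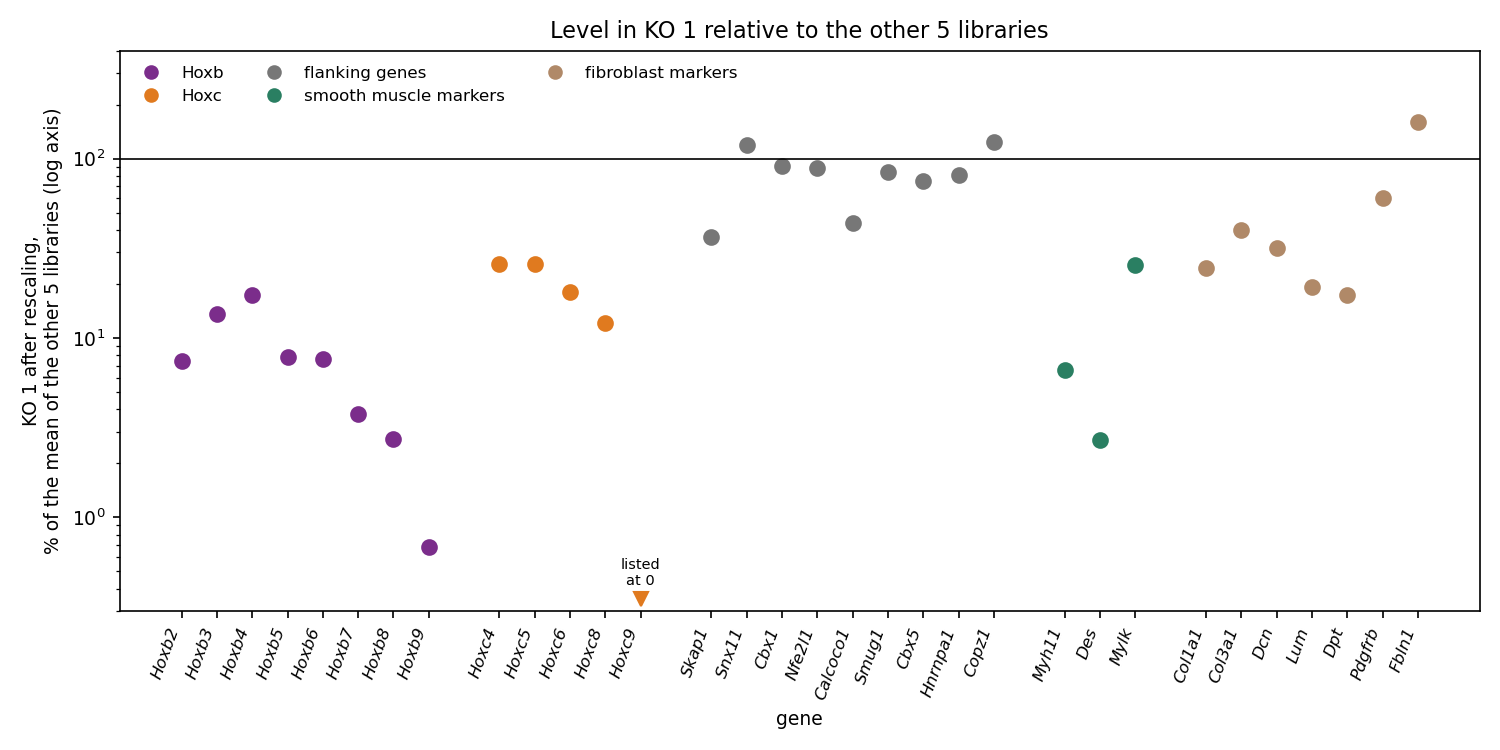
Level in KO 1 after rescaling as a percentage of the mean of the other 5 libraries (vertical log axis) for Hoxb and Hoxc genes with a mean of at least 1, flanking genes at that level, and the smooth muscle and fibroblast markers that KO 1 covers (horizontal axis). The line is at 100%, Hoxb9 lies at 0.682%, Hoxc9 is listed at 0 and drawn at the lower edge, and the flanking genes lie between 36.5% and 124%.

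Most genes flanking the clusters stood nearer to the other libraries, but for Hoxb levels could be compared on the Hoxb1 side alone. Of the 12 flanking genes on chromosomes 11 and 15, 11 were kept, and their median was 84.1% of the mean of the other libraries. Beside Hoxb, Skap1 stood at 36.5%, Snx11 at 119%, Cbx1 at 90.6% and Nfe2l1 at 88.7%, while Ttll6 (0.05 to 0.10 elsewhere) and Calcoco2 (0 in all 5) were listed at 0. Beside Hoxc, Calcoco1, on the Hoxc13 side, stood at 43.6%. On the Hoxc4 side, Smug1 stood at 84.1%, Cbx5 at 74.7%, Hnrnpa1 at 81.1%, Nfe2 at 120% and Copz1 at 124%. Of the 11 kept, 8 were below and 2 above all other libraries, while 39.7% of covered genes kept were below.

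Cell type markers also differed in KO 1, in which 39.7% of all covered genes kept lay below the other libraries. All 3 smooth muscle markers it covers were below the other libraries: Des at 2.70%, Myh11 at 6.59% and Mylk at 25.6%, with a summed linear level of 63.8 against 439 to 589. Of 7 fibroblast markers, 6 were below, down to 17.3% (Dpt), and Fbln1 was above at 160%, with a summed level of 197 against 458 to 648. Of 8 enteric glia markers, 7 were below, with a median of 12.6%, while their summed level, 67.3 against 62.1 to 82.8, was mostly that of Erbb3, which epithelium also expresses. The 2 enteric neuron markers covered, Prph and Chat, stood at 13.2% and 13.6%, with a summed level of 0.522 against 2.92 to 5.51. Of 7 epithelial markers, 4 were above and 2 below, with a summed level of 1821 against 1273 to 1583. The 2 endothelial markers covered were both below, with a median of 54.5% and a summed level of 10.5 against 14.9 to 24.2. Of 3 immune markers, 2 were below, with a median of 49.4% and a summed level of 33.1 against 48.8 to 118. Muscle, stromal, neural, endothelial and immune markers were thus low in the library in which Hoxb and Hoxc were low, and their part in the Hox levels was not tested. Hoxb9 (0.682%) and Hoxc9 (listed at 0) stood at a lower percentage than Des, the lowest of the 3 muscle markers. Hoxb8 (2.75%) and every other Hoxb and Hoxc gene with a mean of at least 1 stood above Des.

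Known partners and regulators of Hox genes were examined as lists. Of all 22047 genes kept, 2.23% had an unadjusted p under 0.05, and 13466 were higher and 8581 lower in KO. Under median centring 8382 were higher and 13665 lower. The splits of the lists were not counted under other scalings. TALE homeodomain proteins (Pbx, Meis, Pknox) bind DNA together with Hox proteins. Of 9 TALE genes kept, limma called 0 in KO 2 and KO 3 against WT and 0 had an unadjusted p under 0.05, with 3 higher, 6 lower and a median log2 fold of -0.02. The 2 with the smallest p were Pbx2 (0.25 ± 0.16) and Pbx4 (0.16 ± 0.14). In KO 1, all 4 TALE genes covered were below the other libraries, against 39.7% of covered genes kept. Among them were Meis1 at 18.7%, Pbx2 at 76.9% and Pknox1 at 88.2%.

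Polycomb proteins keep Hox genes silent outside their domains, and Trithorax proteins keep them active inside. Of 27 Polycomb genes, limma called 0 and 1 had an unadjusted p under 0.05, against 2.23% of all genes. Of the 27, 17 were higher and 10 lower, beside 13466 and 8581 of all genes, with a median log2 fold of 0.04. The gene under 0.05 was Cbx7, a reader of the Polycomb mark, with a fold of 0.52 ± 0.17. It was followed by Eed, a core subunit, with 0.28 ± 0.12. Of 17 Trithorax genes and demethylases, 0 were called and 0 had an unadjusted p under 0.05, with 13 higher, 4 lower and a median of 0.05. Ash2l (0.18 ± 0.10) and Dpy30 (0.18 ± 0.14), both subunits of histone methyltransferase complexes, had the smallest p. In KO 1, Polycomb genes had a median of 75.3% over 11 covered, of which 7 were below the other libraries. Trithorax genes had a median of 99.9% over 6, of which 1 was below. Of all covered genes kept, 39.7% were below.

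Retinoic acid activates anterior Hox genes in the embryo. Of 16 retinoic acid genes kept of 18, limma called 0 and 1 had an unadjusted p under 0.05, against 2.23% of all genes. Of the 16, 8 were higher and 8 lower, with a median log2 fold of 0.0093. Cyp26c1, which degrades retinoic acid, had a fold of 0.18 ± 0.07, and Stra6, a retinol carrier, one of 0.75 ± 0.53. With a library left out the fold of Stra6 ran from 0.20 (without KO 2) to 1.29 (without KO 3). Of the 8 ParaHox and Evx genes, relatives of the Hox genes, 3 were kept (Pdx1, Cdx1 and Cdx2), and 5 were listed at 0 in all 5 libraries. Of the 3, all had folds above 0 and 0 had an unadjusted p under 0.05, with 0.04 ± 0.04 for Pdx1 and 0.04 ± 0.12 for Cdx2. With median centring the folds of Pdx1 and Cdx2 were below 0, at -0.012 and -0.020. Cdx2, the master regulator of intestinal identity, stood at 6.07, 5.79 and 6.07 in WT, with 5.94 for KO 2 and 6.08 for KO 3. Cdx1 ran from 6.07 to 6.30 and stood at 5.86 rescaled in KO 1, or 79.5%. Of the flanking genes, 17 of 18 were kept, with 9 higher and 8 lower in KO 2 and KO 3, 0 called, 0 with an unadjusted p under 0.05 and a median of 0.01. Lnpk had a fold of 0.13 ± 0.11 and Nfe2 one of 0.12 ± 0.10.

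Genes that mark positions along the gut were set beside the Hox genes, since the label places the tissue in the duodenum. Gata4, which specifies proximal small-bowel epithelium, stood at 0.43, 0.54 and 0.63 in WT, with 0.54 for KO 2 and 0.50 for KO 3. Pdx1, which is active in the duodenum, ran from 0 to 0.08. Fabp6, the bile acid binding protein of the ileum, stood at 8.76, 8.16 and 8.46 in WT, with 8.71 for KO 2 and 8.73 for KO 3. The ileal bile acid transporter Slc10a2 ran from 5.98 to 6.76, and the ileal hormone gene Fgf15 from 5.02 to 5.84. Other genes of the duodenal list were not low in these 5 libraries, such as Dmbt1 at 9.61 to 10.08, Slc40a1 at 6.30 to 6.67, Sct at 3.99 to 4.64 and Cck at 2.39 to 2.89. Fabp1 ran from 2.01 to 2.15. The transcription factors Gata4 and Pdx1, which define the proximal segment, were thus near 0 while Fabp6, Slc10a2 and Fgf15 were above 5, which goes against the duodenal label, and the list as a whole was mixed.

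In KO 1, most of the duodenal genes it covers were higher. Gata4 stood at 5.19 rescaled in KO 1, Lct (lactase) at 7.05 against 1.08 to 2.01 in the others, and Gip, a hormone of duodenal K cells, at 4.02 against 0.27 to 1.22. Fabp6 stood at 3.91 in KO 1, or 3.68% of the mean of the others. Of 6 genes of the duodenal list covered, 5 were above all other libraries and Slc40a1 was below at 39.5%. The share of all covered genes above the other libraries was not counted. The 5 include 2 genes at low levels, Onecut2 (0.55 against 0.12 to 0.42) and Neurog3 (0.84 against 0.51 to 0.76). Of 8 ileal genes covered, 5 were below and Ggt1 was above at 220%, with a median of 77.5%, while 39.7% of all covered genes were below. Apart from Fabp6 the ileal genes ran from 50.6% (Pyy) upward, with Nts at 113% and Tff3 at 91.1%, and Osr2, a distal transcription factor, stood at 5.42 against 5.48 to 5.81. So the library with low Hoxb and Hoxc levels also had higher levels of Gata4, Lct and Gip and a low level of Fabp6. Genotype, gut position and tissue layers cannot be told apart in 1 library.

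**Figure D5:**
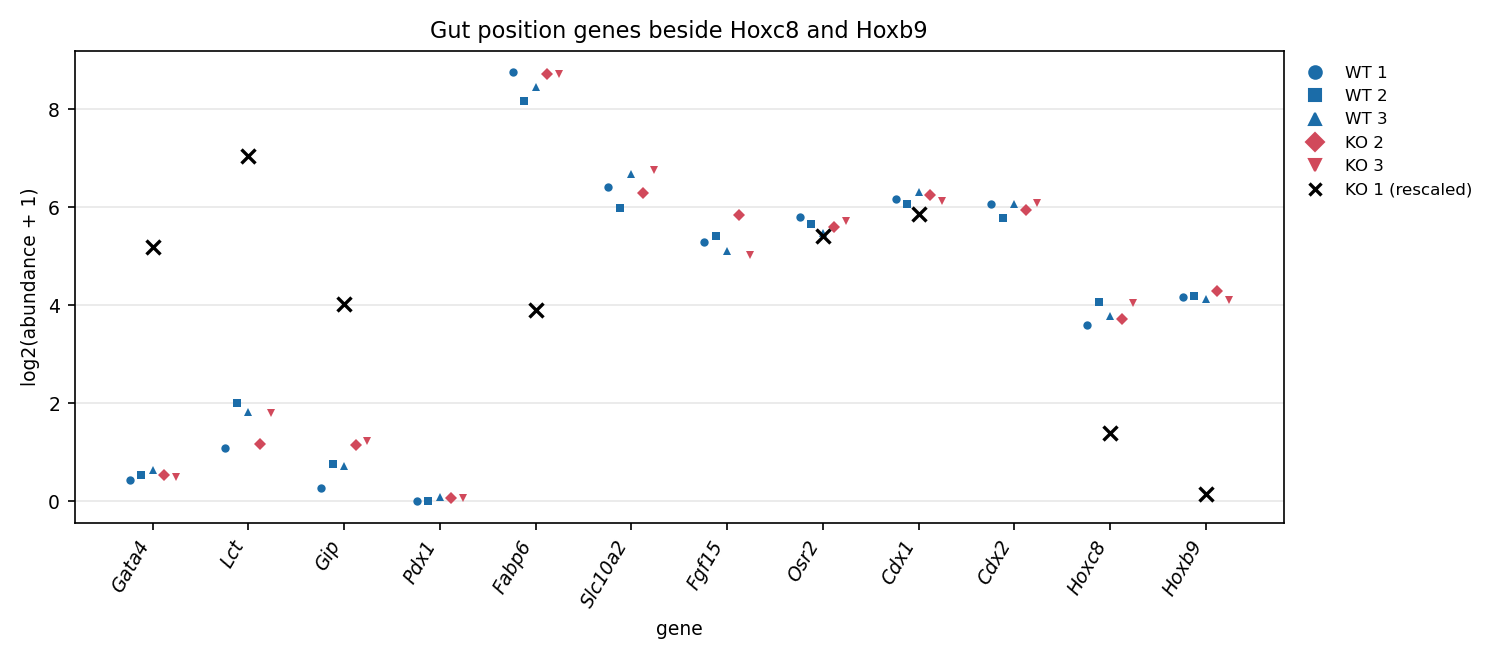
Level as log2(abundance + 1) (vertical axis) of gut position genes beside Hoxc8 and Hoxb9 (horizontal axis), with 1 symbol per library and crosses for KO 1 after rescaling where it has values. Gata4, Lct and Gip lie higher in KO 1 than in the other 5 libraries, and Fabp6, Hoxc8 and Hoxb9 lie lower.

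Between KO 2, KO 3 and WT, the position lists showed no call either. Of 14 duodenal genes kept, limma called 0 and 2 had an unadjusted p under 0.05, against 2.23% of all genes. Of the 14, 6 were higher and 8 lower, beside 13466 and 8581 of all genes, with a median log2 fold of -0.03. Gip stood at 0.27, 0.77 and 0.73 in WT, with 1.14 for KO 2 and 1.22 for KO 3, a fold of 0.59 ± 0.17, while Ctrb1, a pancreatic protease, stood at 0.16, 0.16 and 0.22 in WT and was listed at 0 in both KO 2 and KO 3. Of 14 ileal genes, 9 were higher and 5 lower, with a median of 0.06, 0 called and 0 at an unadjusted p under 0.05. Fabp6 had a fold of 0.26 ± 0.20 and Slc51a one of 0.14 ± 0.13. Of 10 colonic genes kept of 12, 4 were higher and 6 lower, with a median of -0.02, 0 called and 0 at an unadjusted p under 0.05. Besides Hoxb13, Car1 had the smallest p. It stood at 3.88, 4.11 and 6.07 in WT, with 3.37 for KO 2 and 3.57 for KO 3, a fold of -1.22 ± 0.64, and without WT 3 the fold was -0.53.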

How the data were processed

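Bulk RNA-seq was made from polyadenylated RNA of intestine with a stranded low-input kit, per the labels. The authors deposited 1 table of log values, taken as log2(abundance + 1). The build was mm10, per the submitters' processing notes. Not given in the sources used here are the aligner, counting tool, strand setting, unit, log base and constant. Across expression levels the ratio of KO 1 to the other libraries ran from 1.67 to 2.24 under base 2 and from 1.90 to 3.28 under base e.

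Of 32245 rows, 26 with a date as symbol were left out. GENCODE vM21 (GRCm38, as mm10) placed 31398 genes and left 821 unplaced. Promoter windows came from RefSeq. KO 2 and KO 3 were compared with WT 1 to WT 3 by 2-sided limma tests (limma 3.58.1, R 4.3.3), with group alone in the model and a trended prior variance, on the 22047 genes above 0 in at least 3 of these 5 libraries, with Benjamini-Hochberg adjustment over them. The fit was tested on simulated data. KO 1 was left out of that fit and compared after division of its linear values by 2.12. Percentages are of the linear mean of the other 5 libraries. Folds were given for the 8 Hox genes and up to 2 genes per list with the smallest p. Values of some members and list genes are not reported here. Members and lists were chosen with earlier results of these data known. Other settings were all 6 libraries (rescaled or as deposited), each library left out, quantile normalization, median centring, a replicate block, other filters, added constants of 0.1 and 5, no variance trend, and other factors or log base for KO 1.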

Additional observations from a re-analysis of the deposited data

How the results depend on the processing

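No Hox gene and no member of the regulator, flanking or gut position lists was called by limma under any setting run. Cell type markers were counted in the fit described alone. Over all genes, 1 was called in the fit described, 4 with no filter, and 0 with all 6 libraries as deposited, with a mean of at least 1, with an added constant of 0.1, and with each library left out in turn (lowest and highest both 0). The replicate number as a block also gave 0 calls. Without KO 1, number 1 holds WT 1 alone, so the block gave the same folds as leaving out WT 1. Deviations of same-numbered libraries from their group means correlated at 0.28 (WT 2 and KO 2) and 0.33 (WT 3 and KO 3). With 2 KO libraries these deviations mirror each other, giving -0.28 (WT 2 and KO 3) and -0.33 (WT 3 and KO 2). The values therefore rest on 1 contrast of KO 2 with KO 3 and cannot show a pairing. Number 1 could not be examined without KO 1, and the labels do not say what a number marks, so the libraries are known to share only a number. The median Hox fold of 0.0033 became -0.21 with KO 1 rescaled and added, -0.30 with all 6 as deposited, -0.054 under median centring, -0.012 under quantile normalization and -0.0069 with the block, and ran from -0.026 to 0.061 with a library left out. The count of 14 Hoxb and Hoxc genes was the same under each factor, log base and added constant tried, but these could not change it. It was already 14 as deposited, and every factor tried was above 1 and so lowered KO 1 further. A log base or added constant keeps the order of libraries, and Hoxb13 was tied at 0. This sameness therefore says nothing on stability. With 6 libraries as deposited, the zeros of KO 1 enter as values. Missing values counted as 0 turned folds to -0.25 (Hoxd4), -0.55 (Hoxa3), -0.043 (Pbx4), -1.97 (Cdx2), -1.39 (Eed), -1.26 (Ash2l) and -1.07 (Lnpk), which says nothing on stability, since KO 1 has no value for these 7 genes. Fabp6, which it covers, turned to -0.997. With KO 1 rescaled, Fabp6 turned to -1.34 and Slc51a to -0.047, and under median centring Pdx1 to -0.012 and Cdx2 to -0.020. With a library left out, folds ran from -0.014 to 0.51 (Hoxd4), -0.45 to 0.0028 (Hoxd8), -0.24 to 0.061 (Hoxc10), -0.21 to 0.015 (Hoxb6), -0.027 to 0.34 (Pbx4) and -0.058 to 0.11 (Cdx2). Of 356 folds under other settings, 337 kept their sign and 19 did not. Apart from those 7, the cause of a turned sign was not tested. Many of the 337 could not turn. Other filters and no variance trend leave a fold as it was. Adding KO 1 rescaled does so too for genes that KO 1 does not cover, and the block repeats the folds without WT 1. The count of 337 is therefore no measure of stability. With a library left out, 18 of 25 folds moved by over 1.5 times. Depth is unknown.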

Other observations

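Antisense transcripts of the clusters, which are not among the 39 genes, were listed beside them. Hoxb5os, on the opposite strand from Hoxb5 and Hoxb6, stood at 2.76, 2.45 and 2.45 in WT 1 to WT 3, 2.21 in KO 2 and 2.72 in KO 3, and at 0.32 rescaled in KO 1, which is 5.13% of the mean of the others. Hoxb3os stood at 0.96, 1.19 and 0.77 in WT, 1.06 in KO 2, 0.88 in KO 3, and at 0.16 rescaled in KO 1, or 12.3%. Both were below all other libraries in KO 1, as were 39.7% of covered genes kept. So were Hoxb3 at 13.6% and Hoxb5 at 7.83%, and reads of overlapping exons may be shared between each pair. Hoxaas2 ran from 0.51 to 0.99, Hoxaas3 from 0.78 to 1.22 and Hoxd3os1 from 1.29 to 1.80 in the 5 libraries, and Hoxa11os was above 0 in WT 3 alone, at 0.02. WT and KO values overlapped for these 6 transcripts. Hoxa11os did not pass the filter and was not tested, and none of the others was called by limma with Benjamini-Hochberg adjustment.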
